A study of Mus musculus with 6 samples.

Results

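Aldehyde dehydrogenases oxidise aldehydes to carboxylic acids with NAD or NADP as the electron acceptor. In skin the aldehydes come from lipid peroxidation, from fatty alcohols and sphingolipids of the barrier, and from vitamin A, whose aldehyde is oxidised to retinoic acid, a regulator of keratinocyte differentiation. The genes described here are 9 members of this superfamily, taken from the deposited gene table by symbol: Aldh3a1, Aldh3a2, Aldh3b1, Aldh3b2, Aldh1a1, Aldh1a2, Aldh1a3, Aldh1a7 and Aldh2. They are 9 of the 47729 genes in the table. Aldh3a1 was chosen for its difference between the treatments in these same libraries, and the others as its relatives, so the differences between treatments below are a description and carry no test of their own.

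The 6 RNA libraries were made from epidermis of wild-type C57BL/6 mice, lifted off the dermis with Dispase II. In 3 of them the skin had received AKBA gel, and in 3 control gel, a blank gel. AKBA usually stands for a boswellic acid derivative from the resin of Boswellia trees. The sample descriptions of the control gel libraries carry the letters IMQ without explanation. The sources used here do not give the animals' age or sex, the dose, the duration, or whether either group had another skin treatment. The labels do not tie libraries to animals, so the spread given here is the spread between libraries and may be technical.

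The libraries held 19066045 to 22760432 counts, of which the 9 genes took 0.0633% to 0.072% under AKBA gel and 0.0477% to 0.0589% under control gel. Epidermal markers were abundant, with summed levels of the 5 suprabasal keratinocyte markers of 34010 to 63730 CPM under AKBA gel and 24720 to 38270 CPM under control gel. CPM are counts scaled to library size with TMM factors. Fibroblast markers were also high (19440 to 25770 against 18750 to 35290 CPM), as were skeletal muscle markers (4823 to 5931 against 3643 to 6745 CPM), and markers of other cell types were thus present in every library. In such bulk samples, fewer cells of a type and less RNA per cell cannot be told apart. On the first principal component AKBA gel replicates 1 to 3 lay at -26.3, -43.8 and -8.74. Control gel replicates 1 to 3 lay at -0.0812, 32.8 and 46.2, so the gels did not overlap on it. AKBA gel replicate 2 and control gel replicate 3 were at its opposite ends. Leaving both out, as done below, takes away from each gel its most extreme library, which can itself lower differences between the gels.

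In the bases around the catalytic cysteine, the Aldh3 genes among the 9 stood apart from the Aldh1a genes and Aldh2. The aldehyde dehydrogenase cysteine signature of PROSITE was found once in the longest coding sequence of each member in GENCODE M21. The 36 coding bases of the signature are shown because they show how the Aldh3 genes differ from the others at the active site. Capitals mark the codon of the catalytic cysteine.
Aldh3a1: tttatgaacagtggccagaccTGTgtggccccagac
Aldh3a2: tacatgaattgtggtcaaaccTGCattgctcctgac
Aldh3b1: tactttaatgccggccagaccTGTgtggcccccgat
Aldh3b2: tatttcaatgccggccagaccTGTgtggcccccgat
Aldh1a1: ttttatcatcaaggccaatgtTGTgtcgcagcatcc
Aldh1a2: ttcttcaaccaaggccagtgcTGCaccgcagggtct
Aldh1a3: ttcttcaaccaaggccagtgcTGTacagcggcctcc
Aldh1a7: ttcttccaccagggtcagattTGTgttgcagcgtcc
Aldh2: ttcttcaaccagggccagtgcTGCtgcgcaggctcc
Aldh3a1 differed from Aldh3a2 at 11 of these 36 bases and from Aldh3b2 at 9, and from the Aldh1a genes and Aldh2 at 16 to 19. Aldh3b1 and Aldh3b2 differed at 2. These bases did not set Aldh2 apart from the Aldh1a genes, since Aldh1a2 differed from Aldh2 at 5 and from Aldh1a1 at 13. Aldh3b3, a neighbour of Aldh3b2 that is not among the 9 genes, had the same 36 bases as Aldh3b2.

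Over whole coding sequences, Aldh3a1 was 66.2% identical to Aldh3a2 and no 50-base stretch of its coding sequence occurred in that of any other member. Aldh3b2 and Aldh3b3 were 89.7% identical, and 35.3% of the 50-base stretches of either occurred in the other. Aldh3b1 shared 8.98% of its stretches with Aldh3b2. Aldh1a1 and Aldh1a7 were 91.6% identical and shared 10.4% of their stretches, so the split of reads within these groups is uncertain. The start of their coding sequences shows how close that pair is, with the 3 differing bases of the first 60 in capitals.
Aldh1a1: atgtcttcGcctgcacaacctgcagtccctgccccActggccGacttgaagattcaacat
Aldh1a7: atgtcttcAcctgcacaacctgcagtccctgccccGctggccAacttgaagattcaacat

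The Aldh1a1 and Aldh1a7 pair and the Aldh3b genes are also neighbours in the genome (GENCODE M21, GRCm38), as are the less alike Aldh3a1 and Aldh3a2. Aldh3a1 (ENSMUSG00000019102) spans chr11:61207537-61218421 on the plus strand, and Aldh3a2 begins 4995 bases further on, at chr11:61223417-61267464 on the minus strand, so that the 3′ ends of the genes face each other. Aldh3b1 (chr19:3913491-3929808) lies near Aldh3b2 (chr19:3972328-3981646), with Aldh3b3 between them and 224 bases before Aldh3b2. Aldh1a1 (chr19:20492715-20643465) and Aldh1a7 (chr19:20692953-20727562) face each other with 49487 bases between them. Aldh1a2 (chr9:71215789-71296243), Aldh1a3 (chr7:66390890-66427517) and Aldh2 (chr5:121566027-121593824) stand alone. Strand-specific counting is not stated in the sources used here, and none of these gene spans overlaps another of the 9.

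Per length, the members differed in level over a wide range. Aldh3b2, a lipid-associated enzyme of the Aldh3 family, was the most abundant with a mean of 87.8 FPKM over 6 libraries (70.5 to 111 FPKM). FPKM, as deposited by the authors, are scaled by library size and by gene length. Aldh2, the mitochondrial enzyme that clears acetaldehyde, followed at 40.1 FPKM (31.1 to 46.9 FPKM), and the ranges of these top genes did not overlap. Aldh3a1, known as an abundant soluble protein of the mouse cornea, came next at 27.9 FPKM (12.0 to 41.9 FPKM), a range that overlapped that of Aldh2, although Aldh2 was higher in 5 of 6 libraries.

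Aldh1a1, which makes retinoic acid, averaged 14.0 FPKM and Aldh3a2, the fatty aldehyde dehydrogenase whose loss causes the scaling skin disease Sjögren-Larsson syndrome in humans, averaged 12.5 FPKM. Their ranges overlapped, and Aldh1a1 was the higher of the pair in 3 of 6 libraries, so their order is not set by these data. Aldh1a3 followed at 6.85, Aldh3b1 at 4.19 and Aldh1a7 at 2.85 FPKM, each overlapping the next. Aldh1a2 was far below all others at 0.177 FPKM (0.06 to 0.28 FPKM), with 3 to 13 counts in a library.

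**Figure D1:**
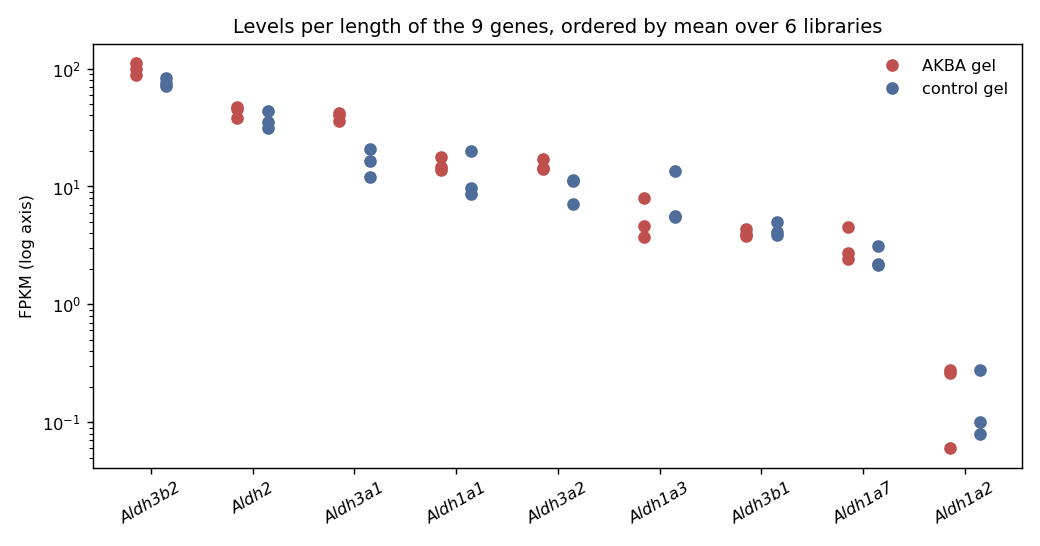
FPKM on a log axis for each of the 9 genes, ordered by the mean over 6 libraries; each point is 1 library, AKBA gel left of control gel. Aldh3b2 (mean 87.8 FPKM) is highest and Aldh1a2 (0.177 FPKM) lowest, and Aldh3a1 is the gene in which the 2 groups of points are farthest apart.

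Aldh3a1 was the member with the largest difference between the gels. Its level was 79.7, 82.5 and 65.3 CPM in AKBA gel replicates 1 to 3, against 39.2, 31.2 and 25.5 CPM in control gel replicates 1 to 3. Every AKBA gel library lay above every control gel library, and the lowest AKBA gel library stood well clear of the highest control gel library. The mean was 75.8 ± 9.26 CPM under AKBA gel and 31.97 ± 6.91 CPM under control gel (SD, n = 3 each), a log2 fold change of 1.25 ± 0.18 (SE). The raw counts behind these levels were 1625, 1553 and 1532 under AKBA gel and 824, 714 and 532 under control gel.

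No member passed the threshold of 0.05 in the quasi-likelihood test of edgeR adjusted over all 17023 genes tested, in which 0 genes (0%) passed in either direction while 2291 had an unadjusted p below 0.05. All 9 members passed the filter on low counts. The Wald test of DESeq2 called 1 of the 8 members that received an adjusted p, Aldh3a1 as higher, against 1.93% of all genes called, and the exact test of edgeR, added after the data had been seen, called Aldh3a1 out of 9 against 1.3% of all genes. Counting only genes called higher, these shares were 0.603% and 0.452%. In the authors' deposited table Aldh3a1 has a log2 fold change of 1.26 and is the only one of the 9 genes marked as significant, among 273 genes so marked. Because Aldh3a1 was chosen from this contrast, nothing further is read from these counts.

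Aldh3a2, the neighbour of Aldh3a1, differed in the same direction by less. It stood at 98.2, 79.7 and 75.9 CPM in the AKBA gel libraries, against 62.1, 61.2 and 43.5 CPM in the control gel libraries. The groups did not overlap, and control gel replicate 3 was the lowest library, as for Aldh3a1. The log2 fold change was 0.60 ± 0.17 (SE). Within a library, the FPKM of Aldh3a1 was 2.35, 2.996 and 2.49 times that of Aldh3a2 under AKBA gel and 1.83, 1.47 and 1.69 times under control gel, so the ratio of the neighbours did not overlap between the gels either.

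Aldh3b2 had 243, 215 and 178 CPM in the AKBA gel libraries, against 173, 146 and 175 CPM in the control gel libraries. The groups were just apart, with 178.0 CPM in AKBA gel replicate 3 and 175 CPM in control gel replicate 3, and the log2 fold change was 0.36 ± 0.15 (SE). Its close copy Aldh3b3 was at 30.8, 42.8 and 22.3 CPM against 24.3, 23.8 and 33.0 CPM, with overlapping groups. Aldh3b1, which acts on aldehydes of membrane lipids, was nearly level at 7.31, 7.55 and 7.71 CPM under AKBA gel and 9.19, 7.07 and 8.38 CPM under control gel (log2 fold change -0.13 ± 0.16, SE). The Aldh3 genes thus ranged from a clear separation of the gels in Aldh3a1 to overlapping groups in Aldh3b1.

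**Figure D2:**
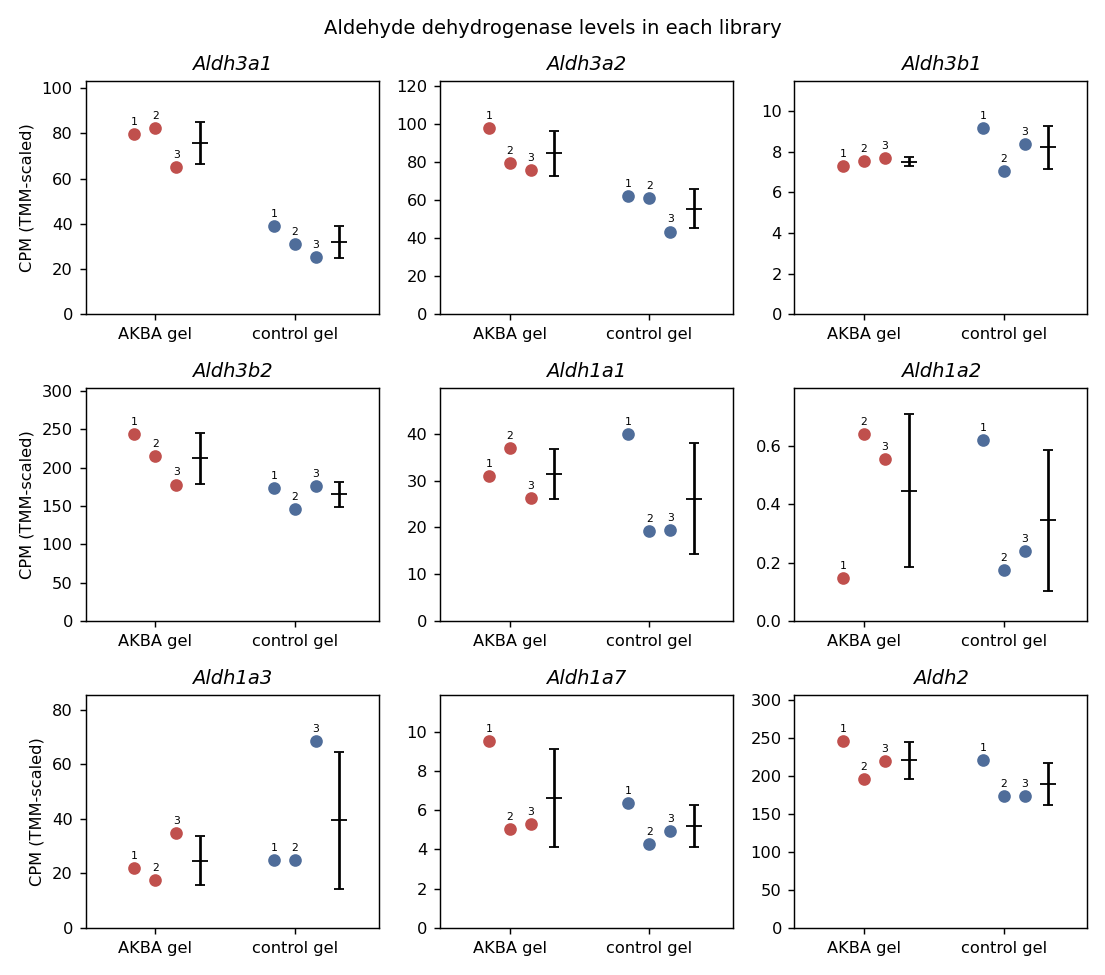
TMM-scaled CPM of each of the 9 genes by library; points are libraries numbered by replicate, AKBA gel left of control gel, and the black bars are the mean and SD of 3 libraries. In Aldh3a1, Aldh3a2 and Aldh3b2 every AKBA gel library lies above every control gel library, while in the other 6 genes the groups overlap.

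The genes for retinaldehyde oxidation had overlapping groups, and none of them had a direction that held in every setting. Aldh1a1 was at 30.9, 36.9 and 26.3 CPM in the AKBA gel libraries, against 39.9, 19.3 and 19.4 CPM in the control gel libraries. The highest of all 6 values was control gel replicate 1, so the groups overlapped, and the log2 fold change of 0.26 ± 0.30 (SE) became 0.71 without that library. It was 0.076 without control gel replicate 2, 0.085 without control gel replicate 3, 0.13 without AKBA gel replicate 2, and -0.046 with AKBA gel replicate 2 and control gel replicate 3 both left out. Aldh1a3, which makes retinoic acid in epithelia, was at 21.8, 17.5 and 34.7 CPM against 25.0, 24.9 and 68.4 CPM. Here 1 library set the difference, since the log2 fold change of -0.67 ± 0.44 (SE) was -0.015 without control gel replicate 3 and 0.18 with AKBA gel replicate 2 left out as well.

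Aldh1a7, a rodent copy of Aldh1a1, was at 9.52, 5.05 and 5.28 CPM in the AKBA gel libraries, against 6.38, 4.28 and 4.93 CPM in the control gel libraries. Its log2 fold change of 0.35 ± 0.30 (SE) was -0.0075 without AKBA gel replicate 1, the library with the highest value. The FPKM of Aldh1a1 was 3.27, 7.36 and 5.02 times that of Aldh1a7 under AKBA gel and 6.29, 4.53 and 3.95 times under control gel, with no separation of the groups. Aldh1a2, the main retinoic acid enzyme of the mouse embryo, had 3, 12 and 13 counts against 13, 4 and 5 counts, and no difference was detectable at this depth (log2 fold change 0.38 ± 0.65, SE).

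Aldh2 was at 246, 197 and 219.9 CPM in the AKBA gel libraries, against 221 CPM in control gel replicate 1 and 174 CPM in both other control gel libraries. The groups overlapped, with a log2 fold change of 0.22 ± 0.15 (SE). Across the 9 genes, 7 had a positive log2 fold change and 2 a negative one, with a median of 0.35, beside a median of 0.0037 over all genes tested. The median of the 9 was 0.15 without control gel replicate 2, 0.19 without control gel replicate 3 and 0.53 without control gel replicate 1. In 3 of the 9 the AKBA gel libraries lay above all control gel libraries, beside 9.28% of all genes tested, and in none of the 9 below them, beside 9.1% of all genes.

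As a share of the summed FPKM of the 9 genes, Aldh3a1 made up 16.5%, 19% and 16.8% under AKBA gel and 10.7%, 10.7% and 7.82% under control gel. The sum itself was 243, 221 and 214 FPKM under AKBA gel and 192, 155 and 154 FPKM under control gel. Aldh3b2 made up 41.5% to 45.7% of the sum under AKBA gel and 43.0% to 48.8% under control gel, and those ranges overlapped.

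The other 12 aldehyde dehydrogenases of the mouse were set beside these, and 11 of them passed the filter on low counts. None passed the edgeR or DESeq2 threshold, and their median log2 fold change was -0.10. The sign of that median was not stable. It was -0.015 without control gel replicate 3, -0.027 without AKBA gel replicate 2, and turned to 0.084 with both left out. Aldh4a1, an enzyme of proline breakdown, was at 25.6 ± 0.585 CPM under AKBA gel and 19.2 ± 1.27 CPM under control gel (SD, n = 3 each), with a log2 fold change of 0.42 ± 0.11 (SE) and no overlap. The mitochondrial folate enzyme Aldh1l2 was at 18.3 ± 3.84 against 28.2 ± 4.58 CPM (-0.62 ± 0.19), and Aldh18a1, which makes proline precursors, at 38.3 ± 6.56 against 54.4 ± 12.1 CPM (-0.51 ± 0.19), both with every AKBA gel library below every control gel library. Thus 1 of the 11 lay above all control gel libraries and 2 below, beside 9.28% and 9.1% of all genes tested.

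The other 8 relatives that were tested had overlapping groups. Aldh6a1 of valine breakdown (0.33 ± 0.18), Aldh5a1 of GABA breakdown (0.31 ± 0.14), Aldh3b3 (0.24 ± 0.25) and Aldh9a1 of carnitine synthesis (0.05 ± 0.10) had positive log2 fold changes. Aldh16a1 (-0.10 ± 0.12), the cytosolic folate enzyme Aldh1l1 (-0.12 ± 0.23), mitochondrial Aldh1b1 (-0.14 ± 0.23) and Aldh7a1 of lysine breakdown (-0.24 ± 0.17) had negative ones. Aldh8a1 had 0, 0 and 1 counts under AKBA gel and 4, 2 and 1 counts under control gel and did not pass the filter, so no difference is read from it. Of the 20 aldehyde dehydrogenases tested, Aldh3a1 had the highest log2 fold change and Aldh3a2 the next.

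**Figure D3:**
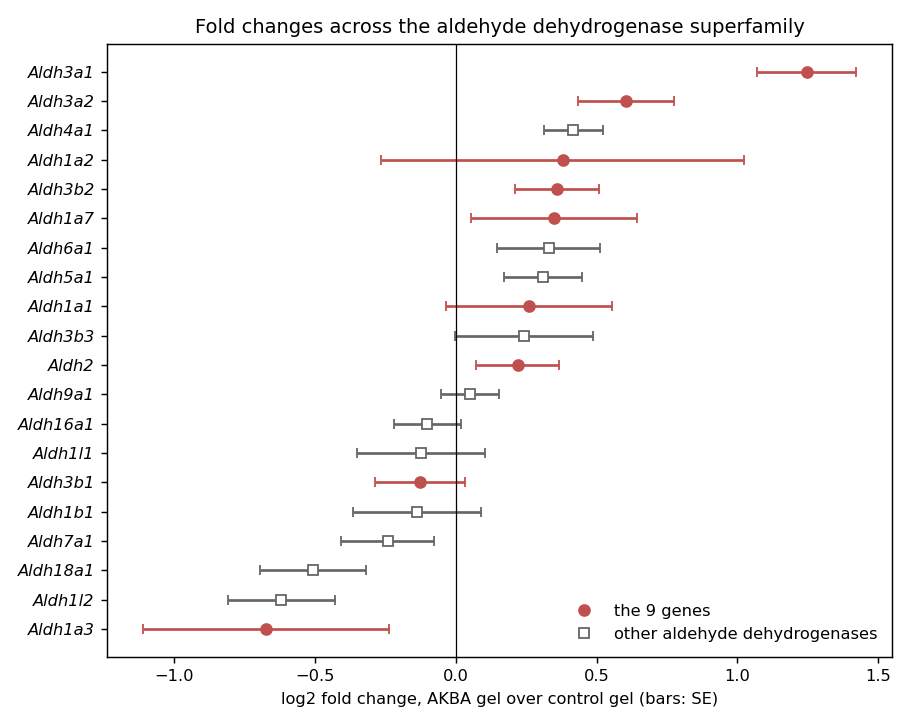
Difference between the gels as log2 of AKBA gel over control, with its SE, for the 20 aldehyde dehydrogenases tested, with filled circles for the 9 genes and open squares for the others. Aldh3a1 (1.25) stands at the top and Aldh1a3 (-0.67) at the bottom with the widest error among the genes above 1 CPM.

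Alcohol and retinol dehydrogenases make the aldehydes that these enzymes consume. Of 5 alcohol dehydrogenases 4 were tested, none passed the edgeR threshold, and 3 lay above all control gel libraries, beside 9.28% of all genes. Adh7, which oxidises retinol and other alcohols in epithelia, was at 95.9, 87.0 and 72.1 CPM in the AKBA gel libraries, against 57.3, 44.5 and 35.5 CPM in the control gel libraries. Its groups did not overlap and its log2 fold change was 0.89 ± 0.19 (SE), and DESeq2 called it (adjusted p = 0.00898). Adh1 was at 32.9 ± 5.97 against 18.7 ± 5.30 CPM (0.82 ± 0.22, DESeq2 adjusted p = 0.0499) and Adh5, the formaldehyde enzyme, at 45.3 ± 0.590 against 41.6 ± 1.14 CPM (0.12 ± 0.09). The list median was 0.85 and was 0.49 without AKBA gel replicate 2.

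The retinoid metabolism list held 20 genes, of which 18 were tested. None passed the edgeR threshold, 5 lay above and 2 below all control gel libraries, beside 9.28% and 9.1% of all genes. The median was 0.17, and 0.00029 without AKBA gel replicate 1. Fabp5, a fatty acid and retinoic acid binding protein, was the most abundant at 1957 ± 687 CPM under AKBA gel and 3833 ± 1538 CPM under control gel (-0.97 ± 0.37), and the retinol dehydrogenase family gene Sdr16c6 was at 378 ± 117 against 223 ± 62.3 CPM (0.76 ± 0.27). DESeq2 called Sdr16c5, another member of that family, as higher (134 ± 30.8 against 73.3 ± 21.8 CPM, 0.87 ± 0.25, DESeq2 adjusted p = 0.0463). Among the 6 retinoid receptors none was called, and Rxra (283 ± 3.86 against 267 ± 6.18 CPM, 0.08 ± 0.11) and Rarg (219 ± 26.9 against 172 ± 4.18 CPM, 0.35 ± 0.12) were the most abundant.

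Aldh3a1 is known in rodent liver and cell lines as a gene induced through the aryl hydrocarbon receptor. Of 9 genes of that receptor 8 were tested, none passed the edgeR threshold, and the median was 0.02. Ahr itself was at 88.4 ± 11.7 against 65.9 ± 21.6 CPM (0.42 ± 0.22), and its partner Arnt at 75.4 ± 5.16 against 77.8 ± 4.29 CPM (-0.05 ± 0.10). The classic target Cyp1a1 was at 19.4 ± 4.88 against 12.8 ± 4.59 CPM (0.60 ± 0.30) with overlapping groups, and Nqo1 had a log2 fold change of -0.40 ± 0.26. DESeq2 called Tiparp, another target, as lower (31.9 ± 1.25 against 64.0 ± 24.7 CPM, -1.004 ± 0.25, DESeq2 adjusted p = 0.0143). Of the 8 genes tested, 4 had a positive log2 fold change and 4 a negative one. The part of this receptor in the difference of Aldh3a1 was not tested.

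The other lists were read in the same way, and no gene in them passed the edgeR threshold. The 13 NRF2 genes of the oxidative stress response had a median of -0.06, with Me1 at 233 ± 55.4 against 163 ± 26.0 CPM (0.51 ± 0.20) and Txnrd1 at 169 ± 55.4 against 121 ± 17.0 CPM (0.48 ± 0.24). Of the 13, 6 had positive and 7 negative log2 fold changes. Me1 lay above all control gel libraries and Slc7a11, Gsta4 and Nfe2l2 below them, beside 9.28% and 9.1% of all genes. Nfe2l2, the gene of NRF2 itself, was at 103 ± 8.65 against 136 ± 20.8 CPM (-0.40 ± 0.14). DESeq2 called the cystine transporter Slc7a11 as lower (46.6 ± 21.4 against 109 ± 23.7 CPM), and the exact test called Gsta4 as lower (11.6 ± 6.59 against 95.9 ± 78.5 CPM). The 11 tested aldo-keto and carbonyl reductases, which reduce aldehydes, had a median of -0.07, with Akr1a1 at -0.07 ± 0.12 and Akr1b3 at -0.26 ± 0.11. DESeq2 called Akr1b8 of that list as lower (14.5 ± 2.62 against 38.5 ± 21.1 CPM).

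The 8 genes that supply fatty aldehydes had a median of 0.33. Sgpl1, the lyase that cuts sphingosine phosphate into a fatty aldehyde that Aldh3a2 oxidises, was at 375 ± 61.6 against 244 ± 47.0 CPM (0.62 ± 0.19) with no overlap. Sphk1, the kinase before it in the pathway, was called by DESeq2 as higher (79.0 ± 28.1 against 40.9 ± 7.17 CPM, DESeq2 adjusted p = 0.0499), and Sphk2 was at 77.5 ± 7.21 against 59.3 ± 2.999 CPM. The fatty acid reductase Far2 was at 459 ± 196 against 283 ± 111 CPM (0.70 ± 0.38), with overlapping groups. In this list 3 of 8 genes lay above all control gel libraries, beside 9.28% of all genes, and none below, beside 9.1%. In these lists and among the other aldehyde dehydrogenases, DESeq2 called 7 of the 78 genes with an adjusted p, beside 1.93% of all genes, and the exact test called 3 of 79, beside 1.3%. The DESeq2 calls were 4 higher and 3 lower, and those of the exact test 1 higher and 2 lower. The lists were chosen with earlier results of these data known, so nothing is read from these shares.

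**Figure D4:**
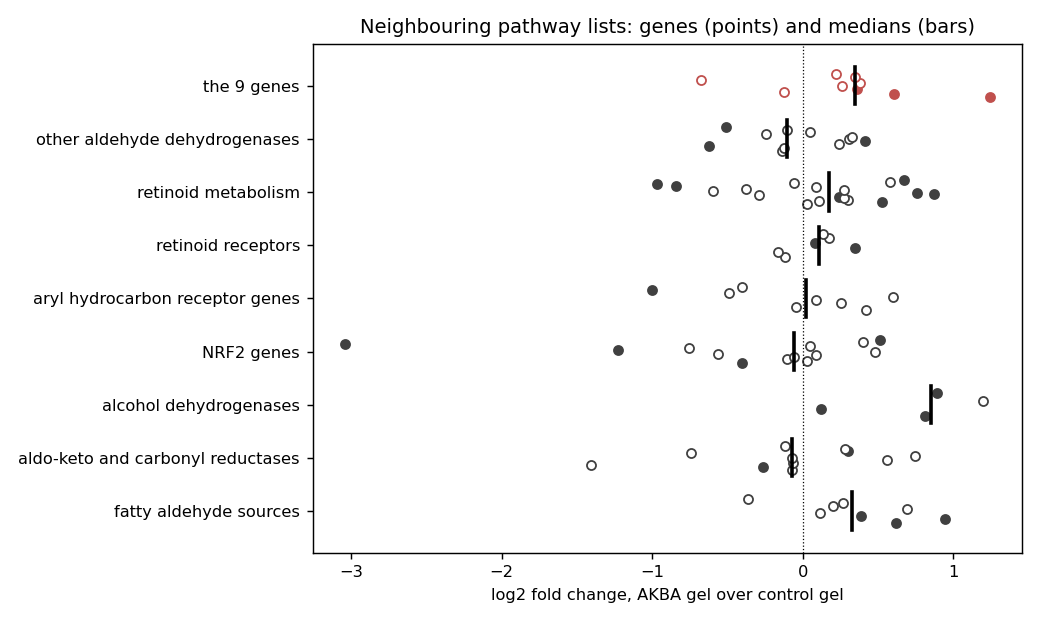
Difference between the gels (log2, AKBA gel over control) for each tested gene of the 9 lists, with filled points where the libraries of the gels do not overlap and black bars at the list medians. All 4 alcohol dehydrogenases lie right of 0 (median 0.85), as do 7 of the 9 genes (median 0.35) and 7 of the 8 fatty aldehyde genes (median 0.33), while the medians of the NRF2 genes (-0.06) and the reductases (-0.07) lie close to 0.

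Markers of the upper epidermis differed between the libraries too, and they are set beside the result for that reason. The summed suprabasal markers Krt1, Krt10, Dsg1a, Lor and Flg were at 54000, 63730 and 34010 CPM under AKBA gel. Under control gel the sum was 38270, 24720 and 28560 CPM, and all 5 markers had positive log2 fold changes. The symbol Flg names 7 deposited entries, and only the first of them was used. Per 1000 CPM of these markers, Aldh3a1 was at 1.48, 1.30 and 1.92 under AKBA gel and 1.03, 1.26 and 0.892 under control gel, still without overlap but with AKBA gel replicate 2 next to control gel replicate 2. Aldh3a2 was at 1.82, 1.25 and 2.23 against 1.62, 2.48 and 1.52 on that scale, and Aldh3b2 at 4.50, 3.37 and 5.23 against 4.53, 5.92 and 6.14, and the groups of both genes overlapped.

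Against the 5 basal markers, whose sum was 15100, 10700 and 13490 CPM under AKBA gel and 14030, 20600 and 32540 CPM under control gel, Aldh3a1 was at 5.28, 7.72 and 4.84 per 1000 CPM under AKBA gel and 2.80, 1.51 and 0.783 under control gel. The basal markers did not share a direction, since Krt14, the highest of the 5 in every library, had a log2 fold change of -1.22 ± 0.45 and Krt15 one of 1.27 ± 0.38 (SE), each with no overlap between the gels. The 6 sebaceous gland markers summed to 731, 355 and 425 CPM under AKBA gel and 394, 393 and 221 CPM under control gel, all 6 with positive log2 fold changes. Per 1000 CPM of these, Aldh3a1 was at 109, 232 and 153 against 99.6, 79.4 and 115, and the groups overlapped. The part of upper epidermal and sebaceous cells in the differences of the 9 genes was not tested. Hair follicle markers summed to 14.0, 671 and 1484 CPM under AKBA gel and 189, 2003 and 59.4 CPM under control gel. The 5 macrophage markers summed to 511 to 727 CPM under AKBA gel and 821 to 995 CPM under control gel, and the 5 dendritic and Langerhans cell markers to 164 to 204 CPM and 124 to 153 CPM, neither with overlap. In the second of these lists Cd207, a Langerhans cell marker (1.18 ± 0.31, SE), and Epcam, which gave most of the sum (0.40 ± 0.14), lay above all control gel libraries, and the other 3 overlapped. The part of these cells was not tested either.

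The genes most like Aldh3a1 over the 6 libraries were ranked by the root mean square difference between log2 CPM profiles centred on their own means, among 12261 genes with a mean of at least 5 CPM. They were Ccdc136 (0.14 log2 units), BC064078 (0.18), the kinase gene Pak3 (0.18), Faah, which breaks down fatty acid amides (0.18), and Adh7 (0.18). Since the profile includes the difference between the gels for which Aldh3a1 was chosen, the ranking is a description over 6 libraries. Aldh3a2 stood at 0.35 from Aldh3a1, Aldh3b2 at 0.50 and Aldh1a3 at 1.18, the farthest of the members compared.

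For the other members the nearest profiles were those of different genes. The 3 most like Aldh3a2 were Slc16a11, Slc45a3 and the ceramide synthase Cers5 (0.069 to 0.085 log2 units), and those most like Aldh3b2 were Ppp2r3a, Fam214a and Cds1 (0.030 to 0.044). Aldh1a3 was nearest to Akr1c18 (0.20), Prss22 and Fam83a, and all 3 were highest in control gel replicate 3, where Akr1c18 was at 74.8, Prss22 at 39.3 and Fam83a at 25.6 CPM. Aldh1a1 was nearest to Slamf7, Fbxl22 and Rbfox1, Aldh1a7 to Pon3, Klf8 and Ldhb, Aldh2 to Sgk1, Stk38 and Inpp5k, and Aldh3b1 to B3galnt1, Polk and Fez2. Aldh1a2 was below 5 CPM and was not ranked.

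Promoter windows from RefSeq on GRCm38.p6, from 250 bases before to 50 bases after a gene's start, were matched for 5 of the 9 genes, namely Aldh3a2, Aldh3b1, Aldh1a1 (2 windows), Aldh1a2 and Aldh1a7. Aldh3a1, Aldh3b2, Aldh1a3 and Aldh2 were not matched. On either strand the aryl hydrocarbon receptor core GCGTG occurred in the windows of Aldh3a2 and Aldh1a2, and in 32.4% of all 32851 windows. The antioxidant element core TGACNNNGC occurred in that of Aldh1a2 (12.4% of all windows), the retinoic acid receptor motif AGGTCA at 2 places in that of Aldh3b1 (16.3%), and the TATA motif TATAAA in that of Aldh1a7 (13.6%). No overlap between motifs occurred, and these matches are a description of letters.

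The window of Aldh3a2 (chr11:61267137-61267436, minus strand, GRCm38.p6) is shown because this gene lay above the control gel libraries together with its neighbour Aldh3a1, with the GCGTG match at position -117 in capitals. That position counts from the RefSeq start. The whole window lies inside the GENCODE M21 span of the gene, which reaches 61267464, so the annotations place the start differently.
Aldh3a2: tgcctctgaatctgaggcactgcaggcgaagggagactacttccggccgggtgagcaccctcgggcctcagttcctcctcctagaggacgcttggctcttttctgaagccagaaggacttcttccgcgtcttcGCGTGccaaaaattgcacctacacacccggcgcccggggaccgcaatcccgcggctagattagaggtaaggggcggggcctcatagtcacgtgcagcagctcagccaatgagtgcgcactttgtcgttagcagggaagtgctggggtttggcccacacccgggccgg
The Aldh1a1 window at chr19:20601718-20602017 and the Aldh1a7 window at chr19:20727507-20727806 were 91.6% identical over 225 aligned bases, with an exact shared run of 65 bases. The other Aldh1a1 window, at chr19:20492333-20492632, aligned with that of Aldh1a7 over only 15 bases, with a longest shared run of 8. Likeness beyond the coding sequence was thus seen only for the first of these Aldh1a1 windows, which lies inside the GENCODE M21 span of the gene.

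The direction of Aldh3a1 held under all 13 alternative settings, with log2 fold changes of 1.04 to 1.43. With 1 library left out at a time it was lowest without control gel replicate 3 (1.11) and highest without control gel replicate 1 (1.43), and without both AKBA gel replicate 2 and control gel replicate 3 it was 1.04. Aldh3a2 (0.46 to 0.70), Aldh3b2 (0.25 to 0.48), Aldh2 (0.13 to 0.35) and Aldh3b1 (-0.23 to -0.03) also kept their sign in all 13. The settings reuse the libraries from which Aldh3a1 was chosen. In Aldh3a1, Aldh3a2 and Aldh3b2 the gels did not overlap, so these settings could hardly change the sign, and no support is drawn from it. Aldh1a1, Aldh1a2, Aldh1a3 and Aldh1a7 each changed sign in 1 setting.

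**Figure D5:**
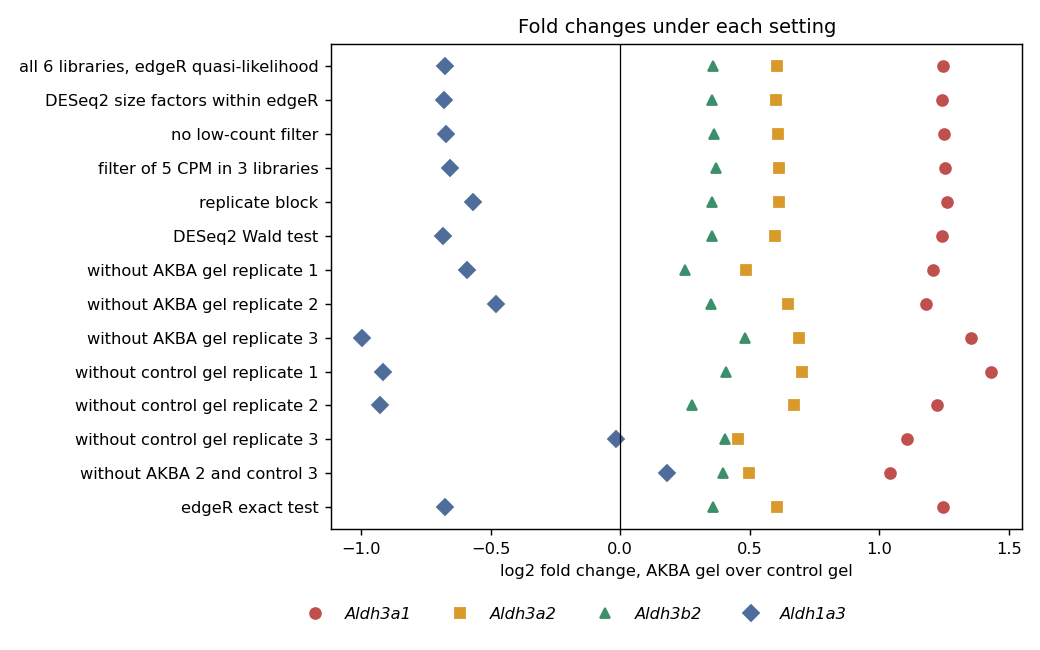
Difference between the gels (log2, AKBA gel over control) under the fit to all 6 libraries and 13 alternatives, for Aldh3a1, Aldh3a2, Aldh3b2 and Aldh1a3. Aldh3a1 stays between 1.04 and 1.43, while Aldh1a3 lies between -0.99 and 0.18.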

How the data were processed

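The authors deposited 1 table with whole-number counts and FPKM for each of 6 libraries and their own comparison, with a log2 fold change, a p-value and an FDR per gene. The submitters' processing notes name CASAVA 1.8, RSEM and edgeR with the build GRCm38 and give no roles. Deposited counts were used for tests, and the deposited FPKM for levels between genes. Fits used edgeR 4.0.16 in R 4.3.3 (TMM scaling, default low-count filter, 17023 genes kept, 2-sided quasi-likelihood F test, Benjamini-Hochberg adjustment, threshold 0.05), with DESeq2 1.42.0 as an alternative. Each SE is the absolute log2 fold change over the root of its F statistic. The fit was tested on simulated data with changes set in genes of at least 5 CPM. It recovered 74% of 100 changes of 2-fold and 99% of 100 changes of 4-fold, with 19 false calls. The simulated counts varied independently between genes, without differences shared by many genes of a library, so these shares need not hold for the real data. The lack of calls in the real data is therefore not read as an absence of 2-fold changes. A floor of 3 counts corresponds to 0.128 to 0.159 CPM, which covers counting error only. Libraries of a group differed beyond sampling noise and each counted as a sample. The members and lists were chosen with earlier results of these data known. All aldehyde dehydrogenases were named, and from each list those called by edgeR or else the 2 most abundant. Adh1, Sdr16c5, Cyp1a1, Nqo1, Tiparp, Nfe2l2, Slc7a11, Gsta4, Akr1b8, Sphk1 and Sphk2 were named after their values were seen. Coding sequences came from GENCODE M21 and were aligned with Biopython 1.88.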

Additional observations from a re-analysis of the deposited data

How the results depend on the processing

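The quasi-likelihood test of edgeR called 0 genes. The DESeq2 Wald test called 95 genes higher and 209 lower, with 1 of the 9 members and 7 genes of the neighbouring lists. The edgeR exact test, chosen after seeing the data, called 77 higher and 144 lower, with 1 member and 3 list genes. The cause of the difference between the tests was not tested. Leaving out 1 library at a time gave 0 to 1 genes higher and 0 to 13 lower, where the 1 and the 13 came without control gel replicate 1, and 0 members and 0 list genes in each case. DESeq2 size factors within edgeR, no filter, a filter of 5 CPM in 3 libraries (Aldh1a2 not tested), and AKBA gel replicate 2 and control gel replicate 3 both left out each gave 0 calls. With the replicate number as a block there were 0 calls and the Aldh3a1 log2 fold change was 1.26. The numbers were not taken to pair the samples (correlations of same-numbered deviations 0.0724, 0.0185 and -0.327). With AKBA gel replicate 2 and control gel replicate 3 both left out, the list median was 0.42 for the alcohol dehydrogenases, and it changed sign for the retinoid receptors (-0.0026) and the reductases (0.037). Ranked by CPM in place of FPKM, Aldh2 stood above Aldh3b2 and Aldh3a1 was at rank 4. Counts of 3 to 13 limit what can be said of Aldh1a2.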
